A study of Homo sapiens with 6 samples.

Results

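The genes described here make, elongate, desaturate, activate and oxidize fatty acids in MDA-MB-231/RR cells. They were picked by gene symbol: 43 of the 46427 genes in the deposited gene table, of which 15 belong to synthesis, 3 to acyl-CoA activation and 25 to carnitine entry and oxidation. All 43 passed the filter on low counts, which left 16557 genes for testing. MDA-MB-231/RR is the radioresistant form of MDA-MB-231, an established human breast cancer line without oestrogen or progesterone receptors. RNA of 3 control samples was compared with RNA of 3 samples that had received ortho-topolin riboside (oTR), an adenosine-linked plant cytokinin, together with melatonin, the pineal hormone. All 6 samples came from this same derivative line, grown in serum-containing DMEM and detached with trypsin. The labels state no dose, no exposure time and no vehicle for the controls. No library with oTR or melatonin alone was analysed here, so the parts of the 2 compounds in any difference cannot be told apart. No label says that the 3 samples of a group were separate cultures. The p-values therefore rest on the spread among these 6 samples, and that spread may be technical only.

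Fatty acids are built in the cytosol from acetyl-CoA, which is carboxylated to malonyl-CoA and then condensed into palmitate, and desaturases and elongases in the endoplasmic reticulum modify the product. Acyl-CoA synthetases activate fatty acids for either direction. Carnitine palmitoyltransferases pass the activated chains to and from carnitine for entry into mitochondria, which malonyl-CoA inhibits. There, acyl-CoA dehydrogenases, hydratases, hydroxyacyl-CoA dehydrogenases and thiolases shorten the chain in repeated rounds and pass electrons to the respiratory chain through electron transfer flavoprotein. In cancer cells, both directions are known to be active, and SREBF1 and PPARA encode regulators of synthesis and of oxidation.

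The estimated counts of the 6 libraries summed to between 50569611 and 72309015. The genes took 0.461% to 0.466% of the counts in the control libraries and 0.474% to 0.48% in the co-treated ones. Libraries of the same group differed beyond counting error in every pair (11.7 to 19.6 chi-square units per degree of freedom). Each was treated as its own sample, but this check cannot tell separate cultures from repeat libraries of the same culture. Defining transcripts of the line were present, with VIM at 2040 to 2690 TPM (a level scaled by transcript length and library total), CD44 at 249 to 265, EGFR at 155 to 230, AXL at 342 to 474 and SPARC at 29.5 to 37.2 TPM. ESR1 and CDH1 stayed at or below 0.0243 TPM, PGR was listed at 0, and EPCAM lay between 0.113 and 0.555 TPM. ERBB2, which such cells express without amplification, lay between 28.3 and 37.4 TPM. Of 9 markers of other cells, the fibroblast gene COL1A2, the leukocyte gene PTPRC and the adipocyte genes ADIPOQ and LEP were listed at 0 in every library. CD3E, ALB and PLIN1 did not exceed 0.582 TPM, PDGFRB lay between 2.36 and 2.71 TPM, and COL1A1 lay between 6.79 and 9.24 TPM. The share of nuclear ribosomal RNA ran from 0.294% to 0.37% in the controls and from 0.551% to 1.07% after co-treatment, and its part in the results below was not tested.

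Genes of both directions moved in both directions after co-treatment, by small amounts. CPT1A, the gate of mitochondrial import, and ACSS2, which makes acetyl-CoA from acetate, rose most. ETFB and ETFA, which encode both subunits of electron transfer flavoprotein, fell, as did FASN, the fatty acid synthase. Of the 43 genes, 11 rose and 7 fell (edgeR quasi-likelihood test, Benjamini-Hochberg adjusted p under 0.05). The 18 called genes made up 41.9% of the 43, beside 34.4% called over all genes tested, 16.9% upward and 17.5% downward. That share is near the background and is not a result about these genes as a set. The median log2 fold change was 0.03 over the 43 genes and 0 over all genes tested. Called members changed by a median of 0.24 on the log2 scale, beside 0.31 over all called genes, and the 25 uncalled members lay between -0.16 and 0.18. The values of the 3 co-treated libraries lay wholly above the controls in 12 genes and wholly below in 9, and overlapped with them in 22. Over all genes tested, the groups did not overlap in 47.4%, with the co-treated libraries above in 23.3% and below in 24.1%.

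**Figure D1:**
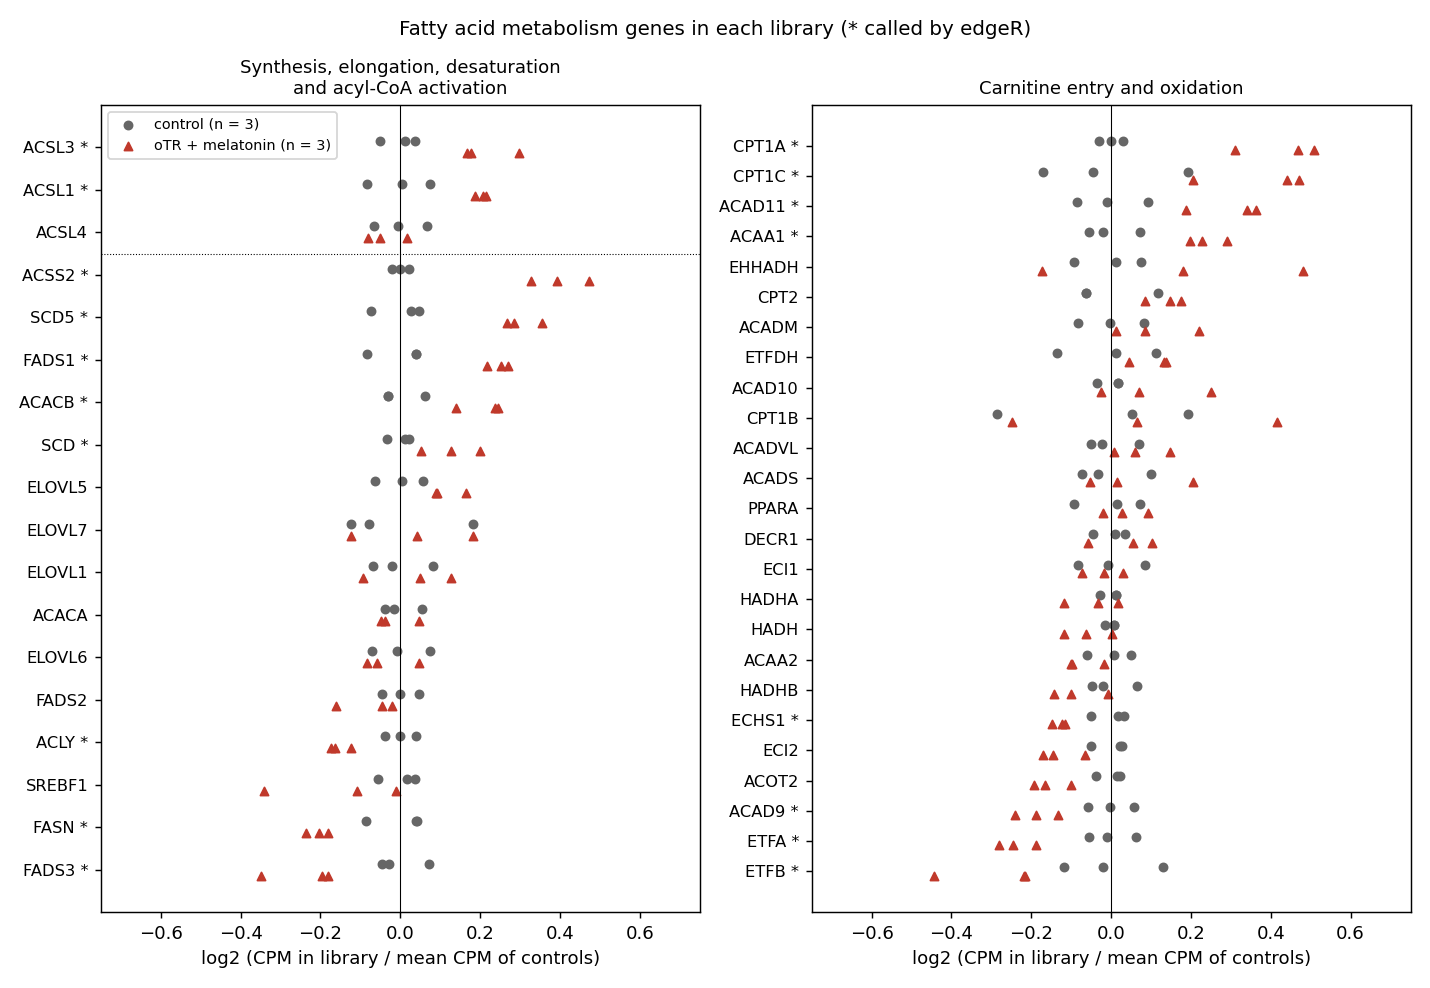
Each point is 1 library, plotted as the log2 ratio of its normalized CPM (counts scaled by library size) to the mean of the 3 controls, with grey circles for controls, red triangles for oTR with melatonin, and an asterisk for genes called by edgeR. The co-treated triangles lie right of all control circles for genes such as CPT1A, ACSS2 and FADS1 and left of them for FASN, ETFA and ETFB, while most other genes overlap.

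The downward calls depended on how the values were scaled. On log2(TPM + 1), without rescaling between libraries, the median of all genes tested lay at 0.09 and that on log2(TPM + 0.1) at 0.12. All 11 rises were called on log2(TPM + 1) and 6 more genes passed upward. Of the 7 falls, 6 lay below 0 and 7 below the median of all genes on that scale, with log2 differences from -0.16 to 0.0036, and the lowest limma adjusted p was 0.103, for ETFB. After TPM was rescaled with relative log expression factors, an alternative chosen after seeing the data, 9 members rose and 5 fell. Of the 11 rises, 8 were called there, without SCD, ACACB and CPT1C (limma adjusted p = 0.0762, 0.112 and 0.0656). Of the 7 falls, 4 were called there, without ETFA, ACAD9 and ECHS1 (limma adjusted p = 0.0752, 0.0782 and 0.0507). ELOVL5 and ACOT2, which the counts did not call, passed on rescaled TPM, upward and downward (limma adjusted p = 0.032 and 0.0246). Directions are therefore given relative to the bulk of genes. In bulk RNA, fewer cells with a transcript and less of it per cell cannot be told apart. Median transcript length was 1860 bases in the 7 genes that fell, 3693 in the 11 that rose and 2792 in the 25 uncalled. The part of length in the calls was not tested.

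**Figure D2:**
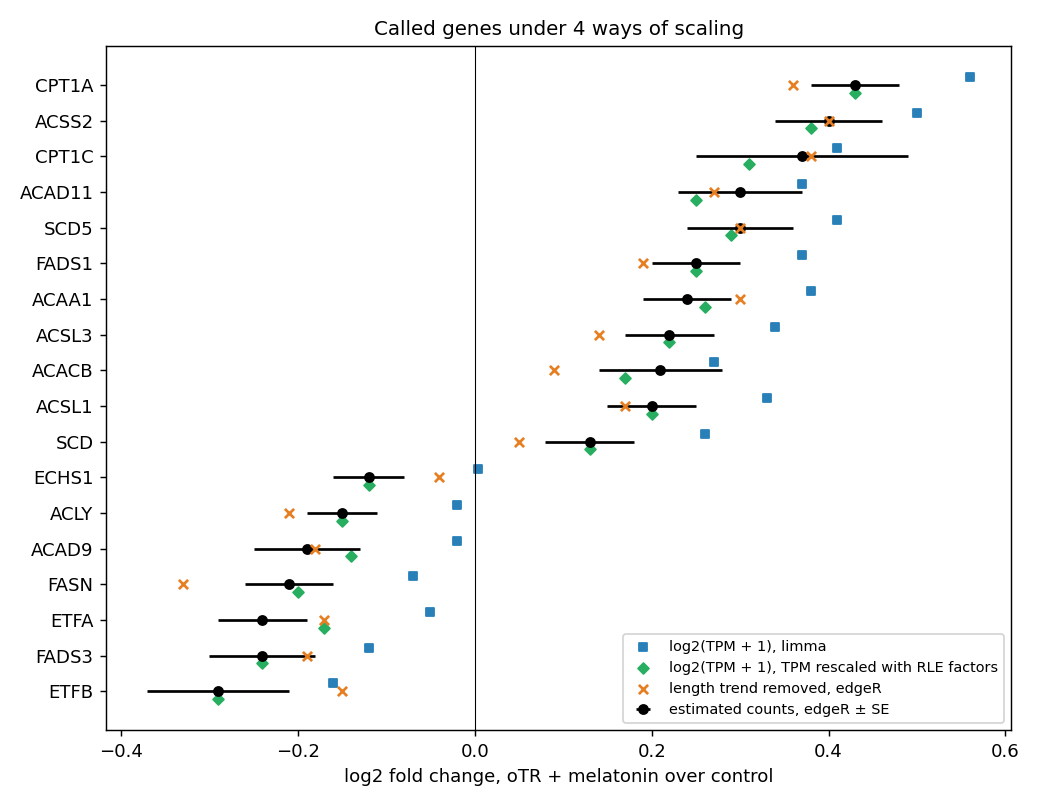
Log2 fold changes of the 18 called genes (oTR with melatonin over control) are shown for estimated counts in edgeR (black, bars ± 1 SE), log2(TPM + 1) (blue squares), rescaled TPM (green diamonds) and counts with the length trend removed (orange crosses). Unscaled TPM shifted all 18 genes to the right, which brought the falls near 0 and ECHS1 to 0.0036, while the rescaled values lay near the black points.

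Promoter sequence was available for 36 of the 43 genes in the RefSeq table of the GRCh38.p14 assembly, as windows from 250 bases before to 50 bases after a start. FASN, CPT1B, EHHADH, DECR1, ACAD11, ETFDH and ACAA1 had no window there. For each gene the window nearest to the start of its most abundant transcript was searched on both strands for the letters of 5 elements. The windows of CPT1A and FADS2 lie 2361 and 11896 bases from that start and are included in the counts. A CCAAT box (CCAAT) was found in 16 of 36 windows, beside 34.6% of all 35116 windows in the table. It occurred in 9 of 14 synthesis windows, 1 of 3 activation windows and 6 of 19 oxidation windows. By call, it was present in 5 of 9 genes that rose, 4 of 6 that fell and 7 of 21 that were not called. An E-box (CACGTG) was present in 2 windows, those of ELOVL5 and ACAD9, and an NRF1 element (GCGCA and GCGC with any base between) in those of ACAD9 and ETFB, beside 7.26% and 5.78% of all windows. The sterol element TCACNCCAC and the PPAR element (AGGTCA repeated with any base between) occurred in 1.13% and 0.0228% of all windows and were not found in these 36 windows. At such low shares, absence from 36 windows says little. A sterol element did occur at base -242 of another ACSL1 window, which was not counted here. These matches describe letters and say nothing of binding.

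Upstream stretches of 4 called genes are printed because they show both subunits of the flavoprotein and 2 synthesis genes that moved in opposite directions. Each runs 5′ to 3′ on the strand of its gene, from 150 bases before the start. It stops before the untranslated regions annotated in GENCODE, or at the end of a marked element that crosses into them. The ETFB stretch ends on the last base of its NRF1 element. Capitals mark a CCAAT box on either strand or an NRF1 element.
ETFA, chr15:76311473-76311619, minus strand: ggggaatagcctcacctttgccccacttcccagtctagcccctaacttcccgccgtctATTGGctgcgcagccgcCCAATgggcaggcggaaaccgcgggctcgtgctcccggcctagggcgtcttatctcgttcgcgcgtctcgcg
ETFB, chr19:51366417-51366538, minus strand: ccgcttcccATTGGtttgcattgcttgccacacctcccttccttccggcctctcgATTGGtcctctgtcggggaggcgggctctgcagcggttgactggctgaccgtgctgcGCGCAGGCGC
ACLY, chr17:41919023-41919101, minus strand: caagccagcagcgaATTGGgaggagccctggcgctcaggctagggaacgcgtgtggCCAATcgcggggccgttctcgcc
SCD5, chr4:82798858-82798946, minus strand: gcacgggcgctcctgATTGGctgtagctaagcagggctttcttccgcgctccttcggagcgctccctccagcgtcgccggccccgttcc
ETFA carried CCAAT boxes that begin at bases -92 and -75 from the start, and ETFB carried them at -141 and -95 with an NRF1 element at -38. ACLY, which fell, had CCAAT boxes at -136 and -94, and SCD5, which rose, had its box at -135.

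Both enzymes that supply cytosolic acetyl-CoA changed, in opposite directions. ACSS2 (gene ID 55902, chr20:34874942-34927966 on GRCh38) was at 28.2, 27.4 and 27.8 normalized CPM in the 3 controls and at 36.5, 38.6 and 34.9 CPM after co-treatment. Every co-treated library lay above every control, and the controls were close to each other. The log2 fold change was 0.40 ± 0.06 (SE; edgeR adjusted p = 0.00019), and the call held under each of the 21 alternatives. ACLY, which cleaves citrate, fell from 535 ± 14.3 to 480 ± 9.09 CPM (SD, n = 3), equal to a log2 change of -0.15 ± 0.04 (SE; edgeR adjusted p = 0.0117). The ACLY call was lost with library size alone as the scale (-0.10; edgeR adjusted p = 0.0772). Per length, ACLY was the more abundant of the pair in both groups, at 263 ± 3.3 and 259 ± 1.94 TPM, with ACSS2 at 20.3 ± 0.561 and 29.2 ± 1.68 TPM.

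Of the enzymes that make malonyl-CoA and palmitate, FASN fell and ACACB rose. FASN (gene ID 2194, chr17:82078338-82098303) was at 762, 698 and 761 CPM in the controls and at 629, 643 and 653 CPM after co-treatment. The lowest control lay above the highest co-treated library. Its log2 fold change was -0.21 ± 0.05 (SE; edgeR adjusted p = 0.00356) with counts and -0.33 with the length trend removed. ACACA (gene ID 31, chr17:37084992-37406836), the cytosolic acetyl-CoA carboxylase, was at 183, 180 and 192 CPM in the controls and at 191, 179 and 180 CPM after co-treatment. The groups overlapped throughout (log2 fold change -0.01 ± 0.05, SE; edgeR adjusted p = 0.829). With the length trend removed, ACACA passed downward at -0.15 (edgeR adjusted p = 0.0273). ACACB, the carboxylase isoform at the outer mitochondrial membrane, rose from 17 ± 0.638 to 19.6 ± 0.791 CPM (SD, n = 3; edgeR adjusted p = 0.0225). That call was lost without control 2 or 3 or co-treated 2 or 3 (edgeR adjusted p = 0.0711, 0.0749, 0.0728 and 0.0767) and with the length trend removed (0.09; edgeR adjusted p = 0.364). ACACA was the main isoform per length, at 40.5 ± 0.415 TPM in controls beside 4.11 ± 0.23 TPM for ACACB.

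SREBF1 (gene ID 6720, chr17:17811334-17837017), whose product drives transcription of lipogenic genes, was at 48.6, 45.6 and 47.9 CPM in the controls and at 47, 43.9 and 37.4 CPM after co-treatment. Co-treated library 3 stood below all others, and library 1 lay within the controls. The log2 fold change was -0.15 ± 0.07 (SE; edgeR adjusted p = 0.136). It passed downward without co-treated 1 (-0.22; edgeR adjusted p = 0.0225) and with the length trend removed (-0.21; edgeR adjusted p = 0.024).

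Of the 5 desaturases, 3 rose, 1 fell and 1 was not called, beside 16.9% of all genes tested that rose and 17.5% that fell. SCD5 (gene ID 79966, chr4:82629539-82798857), a stearoyl-CoA desaturase isoform, was at 26.5, 28.8 and 28.4 CPM in the controls and at 33.6, 35.7 and 34 CPM after co-treatment. All 3 co-treated libraries were above all controls. The log2 fold change was 0.30 ± 0.06 (SE; edgeR adjusted p = 0.0014). SCD (gene ID 6319, chr10:100347233-100364826), the main stearoyl-CoA desaturase per length, was at 529, 546 and 550 CPM in the controls and at 622, 591 and 561 CPM after co-treatment. The groups did not overlap, but co-treated library 3 came close to the highest control. SCD rose with a log2 change of 0.13 ± 0.05 (SE; edgeR adjusted p = 0.0487), a call at the threshold. It was lost without any of the 3 controls or without co-treated 1 or 2 (edgeR adjusted p = 0.18, 0.0834, 0.0682, 0.158 and 0.104), in voom (limma adjusted p = 0.0516), and with the length trend removed (0.05; edgeR adjusted p = 0.457). In TPM, SCD went from 219 ± 3.71 to 262 ± 18.3 and SCD5 from 19.6 ± 0.836 to 26.4 ± 0.834 (SD, n = 3).

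The 3 FADS genes lie side by side on chromosome 11, and of these FADS1 rose and FADS3 fell. FADS1 (gene ID 3992, chr11:61799627-61817003), the delta-5 desaturase of polyunsaturated fatty acids, was at 191, 208 and 208 CPM in the controls and at 235, 244 and 241 CPM after co-treatment. The co-treated libraries clustered above all controls (log2 fold change 0.25 ± 0.05, SE; edgeR adjusted p = 0.00123). Its neighbour FADS2, the delta-6 desaturase, had 218 ± 6.89 CPM in controls and 207 ± 10.7 CPM after co-treatment (SD, n = 3; log2 fold change -0.08, edgeR adjusted p = 0.244), and its groups overlapped. FADS3 fell from 32.3 ± 1.43 to 27.4 ± 1.69 CPM (log2 fold change -0.24 ± 0.06, SE; edgeR adjusted p = 0.01). FADS1 and FADS2 are transcribed in opposite directions and overlap at chr11:61816203-61817003, where reads cannot be assigned to either without strand. The differences between these 3 log2 fold changes were not tested.

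The elongases ELOVL1, ELOVL5, ELOVL6 and ELOVL7, which lengthen fatty acids by successive condensation with malonyl-CoA, were not called. Their log2 fold changes ran from -0.03 to 0.12 (edgeR adjusted p from 0.0787 to 0.832), and DESeq2 and voom also called 0 of the 4. At an unadjusted p of 0.05, 1 passed. It was ELOVL5, the elongase of polyunsaturated chains, whose co-treated libraries (95.3, 90.5 and 90.6 CPM) lay above all controls (85.3, 88.4 and 81.3 CPM). ELOVL1, an elongase of very long chains, was the most abundant of the 4 per length, at 174 ± 6.42 TPM in controls, and ELOVL7 the least, at 4.88 ± 0.635 TPM.

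As a group, the 15 synthesis genes had 5 that rose, 3 that fell and a median log2 fold change of 0.03. Calls made up 53.3% of these genes, beside 34.4% of all genes tested, and this difference was not tested. With the length trend removed, 3 rose and 6 fell, and with the length and GC trends removed 5 fell.

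Of the 3 long-chain acyl-CoA synthetases, ACSL1 and ACSL3 rose, beside 16.9% of all genes tested. ACSL3, which serves lipid droplets and the endoplasmic reticulum, rose from 114 ± 3.55 to 132 ± 6.96 CPM (SD, n = 3), equal to a log2 change of 0.22 ± 0.05 (SE; edgeR adjusted p = 0.00357). ACSL1 rose from 54.6 ± 3.02 to 62.8 ± 0.652 CPM, equal to a log2 change of 0.20 ± 0.05 (SE; edgeR adjusted p = 0.00852). ACSL4, which prefers arachidonate and was the most abundant of the 3 at 85 ± 4.5 TPM in controls, had a log2 fold change of -0.04 (edgeR adjusted p = 0.597). The ACSL1 call was lost without control 1 (0.16; edgeR adjusted p = 0.0537). With length and GC trends removed, the ACSL3 call was lost (0.06; edgeR adjusted p = 0.251) and ACSL4 passed downward (-0.20; edgeR adjusted p = 0.000337).

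Carnitine entry was led by CPT1A (gene ID 1374, chr11:68754620-68844410), the carnitine palmitoyltransferase of the outer mitochondrial membrane that malonyl-CoA inhibits. It was at 75.9, 77.5 and 74.3 CPM in the controls and at 94.2, 105 and 108 CPM after co-treatment. All co-treated libraries stood far above the narrow range of the controls. The rise was 1.35-fold, equal to a log2 change of 0.43 ± 0.05 (SE; edgeR adjusted p = 6.16e-05), and the call held under each of the 21 alternatives. CPT1C (gene ID 126129, chr19:49690672-49713731), an isoform known mainly from brain, was at 3.76, 4.84 and 4.1 CPM in the controls and at 4.88, 5.87 and 5.75 CPM after co-treatment. The groups did not overlap, but control 2 lay just under co-treated 1. The log2 fold change was 0.37 ± 0.12 (SE; edgeR adjusted p = 0.0282). That call was lost without control 1 or 3 or co-treated 2 or 3 (edgeR adjusted p = 0.109, 0.0745, 0.0987 and 0.0877).

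CPT1B, the muscle isoform, varied most between libraries of a group among the 43 genes (coefficient of variation 16.5% and 23%) and its log2 fold change was 0.10 ± 0.19 (SE; edgeR adjusted p = 0.726). It shares its whole span with the readthrough gene CHKB-CPT1B (10.9 TPM on average), so its counts depend on how reads were apportioned. CPT2, which acts at the inner membrane, was at 16.7, 18.9 and 16.7 CPM in the controls and at 19.7, 18.5 and 19.3 CPM after co-treatment, with overlap (edgeR adjusted p = 0.155). In TPM, CPT1A went from 31 ± 1.23 to 46.1 ± 2.16, beside 8.1 ± 1.48 for CPT1B and 3.14 ± 0.463 for CPT1C in controls.

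Of 6 acyl-CoA dehydrogenases, which take the opening step of each round, 1 rose and 1 fell, beside 16.9% and 17.5% of all genes tested. ACAD11 (gene ID 84129, chr3:132558138-132660131), which acts on long chains including hydroxylated ones, was at 21.7, 23.3 and 20.6 CPM in the controls and at 27.7, 28.1 and 24.9 CPM after co-treatment. All co-treated libraries exceeded all controls (log2 fold change 0.30 ± 0.07, SE; edgeR adjusted p = 0.0049). ACAD9, known also as an assembly factor of respiratory complex I, fell from 34.8 ± 1.44 to 30.5 ± 1.19 CPM (log2 fold change -0.19 ± 0.06, SE; edgeR adjusted p = 0.0225). Its call was lost without control 2 or co-treated 2 or 3 (edgeR adjusted p = 0.0846, 0.0623 and 0.105) and with library size alone (-0.13; edgeR adjusted p = 0.104). The short-, medium- and very-long-chain enzymes ACADS, ACADM and ACADVL and the less studied ACAD10 had log2 fold changes of 0.06, 0.11, 0.07 and 0.10 (edgeR adjusted p from 0.185 to 0.661).

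Both subunits of electron transfer flavoprotein, the acceptor of electrons from these dehydrogenases, fell. ETFB (gene ID 2109, chr19:51345155-51366388) was at 44.5, 41.6 and 49.4 CPM in the controls and at 33.2, 38.9 and 38.8 CPM after co-treatment. Co-treated 1 was lowest and the groups did not overlap. The log2 fold change was -0.29 ± 0.08 (SE; edgeR adjusted p = 0.00981). With the length trend removed, the ETFB call was lost (-0.15; edgeR adjusted p = 0.0638). ETFA fell from 199 ± 7.9 to 169 ± 5.71 CPM (SD, n = 3), equal to a log2 change of -0.24 ± 0.05 (SE; edgeR adjusted p = 0.00158). The ETFA call was lost on rescaled TPM (-0.17; limma adjusted p = 0.0752). Per length, ETFA was at 265 ± 18 TPM in controls and 256 ± 11.8 TPM after co-treatment, and ETFB at 109 ± 7.34 and 97.7 ± 7.17 TPM. ETFDH, the oxidoreductase that passes the electrons to ubiquinone, had a log2 fold change of 0.11 (edgeR adjusted p = 0.284), with 20.6 ± 1.74 CPM in controls and 22.2 ± 0.79 CPM after co-treatment.

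The later steps of the mitochondrial round had smaller differences. ECHS1, the short-chain enoyl-CoA hydratase, fell from 106 ± 3.23 to 97.6 ± 1.2 CPM (SD, n = 3), equal to a log2 change of -0.12 ± 0.04 (SE; edgeR adjusted p = 0.0435) that turned to 0.0036 on log2(TPM + 1). That call was lost without any single library except control 2 (edgeR adjusted p from 0.0562 to 0.142). The trifunctional protein subunits HADHA and HADHB, the hydroxyacyl-CoA dehydrogenase HADH and the thiolase ACAA2 lay between -0.08 and -0.04 (edgeR adjusted p from 0.226 to 0.506), and their groups overlapped. HADHA was the most abundant of these 5 per length, at 205 ± 3.78 TPM in controls.

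The enzymes that handle double bonds, ECI1, ECI2 and DECR1, had log2 fold changes of -0.02, -0.13 and 0.03 (edgeR adjusted p = 0.854, 0.0831 and 0.648). For ECI2, 41.8, 38.8 and 39.5 CPM after co-treatment lay below the controls at 44.5, 42.2 and 44.4 CPM. DESeq2 and voom also called 0 of these 3 genes, and 1 passed an unadjusted p of 0.05. ACOT2, a mitochondrial acyl-CoA thioesterase, was at 17.1, 16.5 and 17.2 CPM in controls and 14.8, 15.1 and 15.8 CPM after co-treatment (edgeR adjusted p = 0.0809). The groups did not overlap, and reads of ACOT2 can be shared with its near-identical neighbour ACOT1.

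In peroxisomes, ACAA1, the thiolase, rose from 51.9 ± 2.41 to 61.3 ± 1.98 CPM (SD, n = 3), equal to a log2 change of 0.24 ± 0.05 (SE; edgeR adjusted p = 0.00317). EHHADH, the bifunctional enzyme, had 4.8 ± 0.282 CPM in controls and 5.47 ± 1.22 CPM after co-treatment (edgeR adjusted p = 0.363), and its co-treated libraries spread on both sides of the controls. PPARA (gene ID 5465, chr22:46150526-46243756), the nuclear receptor that activates oxidation genes, was at 35.1, 31.3 and 33.7 CPM in the controls and at 35.6, 34 and 32.9 CPM after co-treatment. The groups overlapped (log2 fold change 0.03 ± 0.06, SE; edgeR adjusted p = 0.70).

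As a group, the 25 oxidation genes had 4 that rose, 4 that fell, 17 that were not called and a median log2 fold change of 0.03. Calls made up 32% of these genes, beside 34.4% of all genes tested. The co-treated libraries lay wholly above the controls in 4 of the 25 and wholly below in 6. Among the 15 synthesis genes, the co-treated libraries lay wholly above in 6 and wholly below in 3. Over all genes tested, the co-treated libraries lay above in 23.3% and below in 24.1%. Whether the oxidation and synthesis genes differed from each other or from all genes in these counts was not tested. Calls held under all 21 alternatives for 6 of the 43 genes, ACSS2, SCD5, FADS1, CPT1A, ACAD11 and ACAA1, all of which rose. On 3 of these alternatives, the unscaled TPM scales, no fall was called, and FASN and FADS3 lost their calls on those 3 alone. Leaving out any 1 library kept 6 further calls, those of ACLY, FASN, FADS3, ACSL3, ETFA and ETFB.

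**Figure D3:**
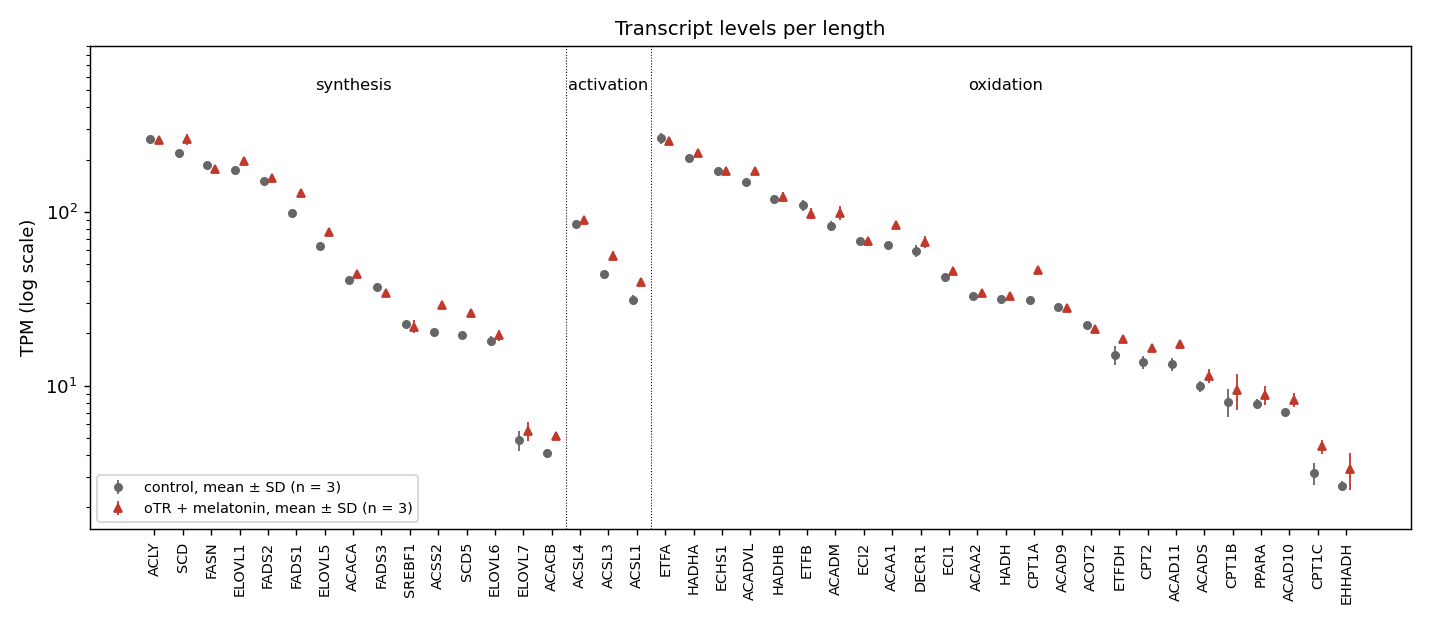
Mean TPM ± SD (n = 3, log axis) of each gene in control (grey) and co-treated (red) libraries, ordered by control level within synthesis, activation and oxidation. Levels ran from 2.66 TPM for EHHADH to 265 TPM for ETFA in the controls, and the difference between the groups is small beside the spread of levels between genes.

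The sum of TPM over the synthesis genes was 1317, 1319 and 1325 in the controls and 1447, 1454 and 1410 after co-treatment. Over the oxidation genes it was 1569, 1542 and 1570 in the controls and 1710, 1653 and 1624 after co-treatment. Both sums were higher in every co-treated library, on a scale where the median of all genes was also higher. The ratio of the synthesis sum to the oxidation sum, which does not depend on the scaling of a library, was 0.839, 0.855 and 0.844 in the controls and 0.846, 0.88 and 0.868 after co-treatment. These ratios overlapped between the groups. In the controls, ACLY, SCD and FASN had the highest TPM in synthesis, and ETFA, HADHA and ECHS1 in oxidation.

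Use of transcript variants could be tested in 38 of the 43 genes. Only ACADVL was called (diffSplice after voom, gene-level F test, Benjamini-Hochberg adjusted p = 0.0489), beside 1.9% of 9981 genes called in all, and 6 of the 38 passed an unadjusted p of 0.05. Transcript variant 4 of ACADVL made up 10.5%, 13.5% and 14.9% of its TPM in the controls and 7.1%, 2.62% and 1.79% after co-treatment. The co-treated shares were lower in every library. Variant 4 begins at chr17:7219831, inside the overlap of ACADVL with DLG4 (chr17:7217125-7220050, DLG4 at 14.4 TPM on average). Reads there cannot be assigned to either gene without strand. The call was lost without control 1, 2 or 3 (limma adjusted p = 0.113, 0.125 and 0.239) and without co-treated 2 or 3 (limma adjusted p = 0.116 and 0.524). CPT1A was almost a single transcript, variant 1, at 93.1% to 99.3% of its TPM, so its rise was a rise of that variant, from between 29.1 and 31.6 TPM to between 41.2 and 45.8 TPM. The estimated shares of SREBF1 and ACACA varied widely within a group, and their usage was not called (limma adjusted p = 0.948 and 0.457). For SREBF1 variant 2, for example, the shares were 43.4%, 9.19% and 37% in the controls and 47.6%, 63.5% and 18.8% after co-treatment.

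Genes around these pathways were taken from 10 further lists. The counts of rises and falls in these lists stand beside 16.9% of all genes tested that rose and 17.5% that fell. No list was tested as a set. Median log2 fold changes were 0.32 for the carnitine shuttle, 0.10 for uptake and binding, 0.04 for SREBP, LXR and ChREBP control, -0.01 for PPAR control, 0.09 for peroxisomal oxidation and -0.23 for ketone body metabolism. They were -0.17 for mitochondrial fatty acid synthesis, -0.08 for other dehydrogenases and thioesterases, 0.05 for triacylglycerol storage and lipolysis and 0.02 for other synthesis genes, beside 0 for all genes tested. In the carnitine shuttle outside the 43 genes, 3 of 6 rose and 1 fell. CRAT, the carnitine acetyltransferase, rose from 9.65 ± 0.733 to 13.8 ± 1.05 CPM (SD, n = 3; log2 fold change 0.52, edgeR adjusted p = 0.000439), while SLC22A5, the plasma membrane carnitine transporter, fell from 15.6 ± 0.265 to 12.8 ± 1.07 CPM (edgeR adjusted p = 0.00867). The peroxisomal carnitine octanoyltransferase CROT and SLC25A29, a mitochondrial carrier, also rose (log2 fold changes 0.38 and 0.39). SLC25A20, the mitochondrial carnitine-acylcarnitine carrier, and MLYCD were not called, with log2 fold changes of -0.18 and 0.27 (edgeR adjusted p = 0.0514 and 0.0544). The co-treated libraries lay below all controls for SLC25A20 and overlapped with them for MLYCD. CROT, SLC25A29, SLC25A20 and MLYCD were named after their values were seen. Among 7 tested genes of uptake and binding, the fatty acid transport protein SLC27A1 rose by 0.33 and the binding protein genes FABP5 and DBI had log2 fold changes of -0.28 and -0.26 (edgeR adjusted p = 0.0304, 0.000496 and 0.00911). Transcripts of FABP5 and DBI are short, at 676 and 588 bases. Values with the length trend removed are not given for genes of these lists.

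Regulators of synthesis split as well. Of 13 genes of SREBP, LXR and ChREBP control, 2 rose and 3 fell. INSIG2 and INSIG1, which hold SREBP precursors in the endoplasmic reticulum, rose by 0.33 and 0.29 on the log2 scale, while RXRA, SREBF2 and MLX had log2 fold changes of -0.35, -0.23 and -0.23 (edgeR adjusted p from 8.51e-05 to 0.00321 over these 5 genes). Among 11 genes of PPAR control, 2 rose and 4 fell. PDK4, a kinase that shuts off pyruvate dehydrogenase, rose from 1.63 ± 0.145 to 3.5 ± 0.28 CPM. That equals a log2 change of 1.10 ± 0.14 (SE, edgeR adjusted p = 5.93e-05). ANGPTL4, a secreted lipase inhibitor, rose by 0.45, while the coactivator gene PPRC1 fell from 191 ± 3.7 to 132 ± 1.34 CPM (log2 fold change -0.53; edgeR adjusted p = 1.5e-06). PLIN2, which coats lipid droplets, and the coactivator gene PPARGC1B had log2 fold changes of -0.24 and -0.23 (edgeR adjusted p = 0.00171 and 0.0141).

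In peroxisomal oxidation outside the 43 genes, 3 of 15 rose and 2 fell. PHYH, which begins the breakdown of branched phytanic acid, rose from 9.64 ± 0.339 to 13.2 ± 0.0772 CPM, and ACOX2, an oxidase of branched chains and bile acid precursors, fell from 36.2 ± 2.07 to 22.1 ± 1.27 CPM (SD, n = 3; log2 fold changes 0.45 and -0.71, edgeR adjusted p = 0.000339 and 6.07e-06). ACOT8 rose by 0.25 on the log2 scale, and HACL1 had a log2 fold change of -0.26. In ketone body metabolism, 1 of 5 tested genes rose and 4 fell, beside 16.9% and 17.5% of all genes tested. OXCT1, the transferase that uses acetoacetate, fell from 30 ± 2.39 to 23.5 ± 1.15 CPM (edgeR adjusted p = 0.00159). ACAT1, BDH1 and BDH2 had log2 fold changes of -0.31, -0.23 and -0.22.

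Mitochondrial fatty acid synthesis, the separate pathway that supplies lipoate, had 2 falls among 9 tested genes, MECR (log2 fold change -0.38; edgeR adjusted p = 0.00191) and NDUFAB1 (-0.32; edgeR adjusted p = 0.000304), and no unadjusted p under 0.05 upward. Of 11 other acyl-CoA dehydrogenases and thioesterases, 4 fell, and again no gene had an unadjusted p under 0.05 upward. HSD17B10, a mitochondrial hydroxyacyl-CoA dehydrogenase, fell furthest, from 52.3 ± 4.12 to 37.5 ± 1.6 CPM (log2 fold change -0.48; edgeR adjusted p = 9.03e-05), and IVD, ACOT13 and ACOT9 had log2 fold changes of -0.24, -0.25 and -0.14. Among 12 tested genes of triacylglycerol storage and lipolysis, PNPLA2, the adipose triglyceride lipase, rose from 70 ± 0.975 to 99.4 ± 3.49 CPM (log2 fold change 0.51; edgeR adjusted p = 5.51e-06), whereas PNPLA3 and MGLL had log2 fold changes of -0.55 and -0.29. Of 13 other synthesis and elongation genes, ACSF2 and ACSL5 rose by 0.28 and 0.13 and HACD1 had a log2 fold change of -0.27. Apart from the highest rise and deepest fall of each list, these genes were named after their values were seen.

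**Figure D4:**
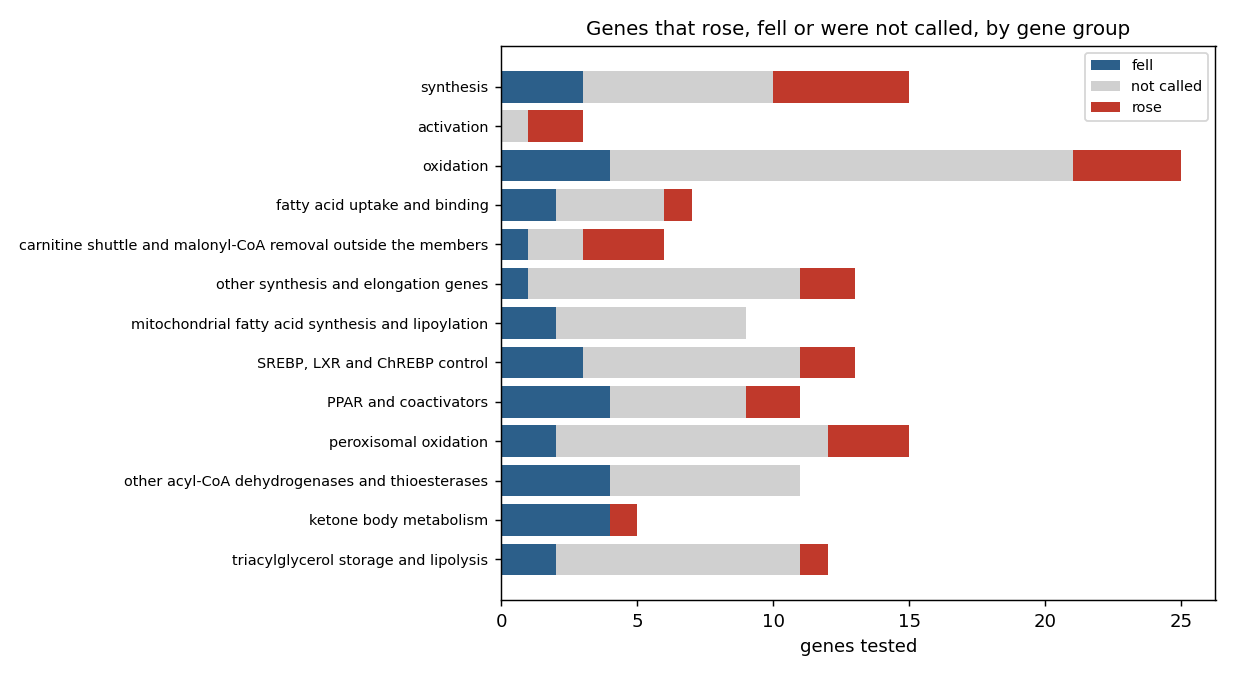
Number of tested genes that fell (blue), were not called (grey) or rose (red) in the synthesis, activation and oxidation genes and in the 10 further lists (edgeR, adjusted p under 0.05). Rises and falls occur side by side in most groups, beside 16.9% of all genes that rose and 17.5% that fell.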

How the data were processed

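RNA sequencing covered 6 samples of MDA-MB-231/RR, 3 control and 3 co-treated, grouped and numbered by their titles. The authors deposited gene and transcript tables with estimated counts (headed as read counts), FPKM and TPM, per the file headers. Trimmomatic 0.38, HISAT2 2.1.0, Bowtie2, SAMtools 1.9, StringTie 2.1.3b and GRCh38 are named per the submitters' processing notes, without roles. The sources used here do not give strand, kit or RNA selection. Columns starting with Con were taken as controls and those starting with Mo as melatonin with oTR, a reading the labels do not spell out.

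The deposited estimated counts, whole numbers, were filtered with filterByExpr (minimum count 10) and tested over all 16557 genes with edgeR 4.0.16 under R 4.3.3 (robust quasi-likelihood test, two-sided). Factors were those of relative log expression, the authors' normalization per the labels' protocols, and Benjamini-Hochberg adjusted p-values under 0.05 were called. CPM uses the same factors. TPM served for levels between genes and for limma 3.58.1 on log2(TPM + 1) and log2(TPM + 0.1), where a fold change understates that of low genes. The deposited FPKM of genes and transcripts were not used in a test. Transcript usage was tested with diffSplice on transcript counts with at least 10 counts in 3 libraries. Alternatives also were voom, DESeq2 1.42.0, TMM factors, library size alone, other filters, a block for the replicate number, every library left out once, the 20 most abundant genes left out, and removal of length or length and GC trends (GC found for 87.8% of genes).

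The genes and lists were chosen with earlier results of these data known. Values of every library are given for called genes with an absolute log2 fold change of at least 0.25 (after rounding) and for FASN, ACACA, SCD, SREBF1, CPT1A and PPARA; further ones were chosen after their values were seen. In each other list, the called genes with the largest rise and fall at 1 CPM or more are named. Some genes of these lists are counted but not reported by name here. For transcripts, called genes and SREBF1, ACACA and CPT1A are named. Of the 43 genes, 13 overlap another gene at 1 TPM or more.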

Additional observations from a re-analysis of the deposited data

How the results depend on the processing

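TMM factors, DESeq2, a minimum count of 50 and leaving out the 20 most abundant genes from the library sizes kept the call and direction of each of the 43 genes; voom and the fit without the robust option (added after seeing the data) lost 1 call, that of SCD. Over all genes, log2(TPM + 1) gave 4516 rises and 1339 falls, log2(TPM + 0.1) 4490 and 1338, and log2(TPM + 1) without a filter 968 falls. Of the 43 genes, 17 rose and 0 fell on both filtered TPM scales, 0 fell on the unfiltered one, and 4 fell with library size alone. Among synthesis genes, 3 rose with the length trend removed and 3 to 4 with 1 library left out; 0 fell on the 3 TPM scales, 6 with the length trend removed and 5 with length and GC trends removed. Of the activation genes, 1 rose and 1 fell with length and GC trends removed, and 1 to 2 rose with 1 library left out (1 without control 1). Among oxidation genes, 8 rose on both filtered TPM scales and 0 fell on the 3 TPM scales. In that group, 2 fell with library size alone, with the length trend removed, with both trends removed and on rescaled TPM (added after seeing the data), and 2 to 4 with 1 library left out (2 without co-treated 2 or 3).

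Scaled by library size alone, synthesis genes had a median log2 fold change of 0.09; the TPM scales gave 0.15, 0.16 and 0.15, removing both trends gave -0.04, and leaving out 1 library gave -0.04 to 0.02. Oxidation genes had medians of 0.09 with library size alone, 0.17 on each TPM scale, 0.06 with the length trend removed, and -0.01 to 0.06 with 1 library left out. ECHS1 turned to 0.0036 on the 3 TPM scales. The TPM scales also moved the median of all genes, to between 0.03 and 0.12. The causes of these shifts were not tested.

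With the replicate number as a block, 6553 genes were called over all genes, 12 of the 43 rose and 8 fell, SREBF1 and ELOVL5 being added, and 0 of the 38 genes tested for transcript usage were called (0 to 1 with 1 library left out). The samples share only a number: deviations of same-numbered samples correlated at 0.07, 0 and -0.04, and not every sample correlated best with its own number. Depth did not keep any of the 43 genes from testing; the number of libraries limits precision.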
